A study of Mus musculus with 8 samples.

Results

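Kit, Kitl, Sohlh1, Sohlh2, Stra8, Dmrt1 and Dmrtb1 were examined in wild type and VRK1-deficient mouse testes. They are the genes of the switch by which spermatogonia begin to differentiate. Members were the probes, other than control probes, whose gene name on the array was one of these 7 symbols. They came to 8 of the 41174 probes and stood for 6 of the 7 genes. No probe was paired with Sohlh1 by name, accession or synonym, so its signal was not measured here. Dmrtb1 is also known as Dmrt6.

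Spermatogonia are the mitotic germ cells of the testis, and those that leave the undifferentiated state begin to carry the receptor tyrosine kinase KIT. Its ligand, KIT ligand, encoded by Kitl, is made by Sertoli cells, the somatic cells that support the germ cells. SOHLH1 and SOHLH2 are basic helix-loop-helix transcription factors of spermatogonia that are needed for differentiation and act on Kit, DMRT1 restrains entry into meiosis, DMRTB1 takes part in the passage from mitotic spermatogonia to meiosis, and STRA8 is induced by retinoic acid and is needed for entry into meiosis.

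RNA of whole testes from male mice at postnatal day 8 was hybridized to 1-color arrays, with 4 wild type and 4 VRK1-deficient samples and 1 array per sample. VRK1-deficient mice carried a gene trap in Vrk1, made from the single ES cell clone RRR178, in which a β-geo cassette interrupts the gene. The line was bred onto C57BL/6. The paper describes it as hypomorphic rather than null, with some full-length VRK1 still expressed in homozygotes. VRK1 is a serine/threonine kinase, and the trap is present in germ cells and somatic cells alike. The 2 Vrk1 probes changed by -4.00 and -3.93 on the log2 scale (limma adjusted p = 0.000135 and 2.09e-05), which left 6.23% and 6.54% of the wild type signal, and where these probes lie relative to the trap was not determined.

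The 8 arrays lay on 2 slides, with replicates 1 and 2 of both genotypes on slide 1 and replicates 3 and 4 on slide 2. Wild type samples took positions 1 and 2 on each slide and VRK1-deficient samples took positions 3 and 4, so position and genotype cannot be told apart. Every level is a log2 signal scaled so that 0 is the 75th percentile of spots on that array, which was a signal of 642 to 848 for wild type and 548 to 745 for VRK1-deficient samples. Wild type replicate 1 stood apart from the other wild type arrays. Its mean level of 6 germ cell markers (Ddx4, Dazl, Piwil2, Mael, Tdrd1 and Dnd1) was 1.50, within the range of the VRK1-deficient arrays (0.98 to 1.67), whereas the other wild type arrays lay between 2.36 and 2.86. The member comparisons and list counts are therefore also given without this array. It was picked because its markers resembled those of VRK1-deficient arrays. Leaving it out thus tends to widen the genotype difference of genes that follow these markers, and a pass without it is not independent support.

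The probes are shown by the first 30 of their 60 bases, because the fragment that a probe covers sets which transcripts it reads. Coordinates come from the scanner annotation (mm7), and exons and untranslated regions were not determined, since no annotation of that build was used here.
Kit, A_51_P355906, chr5:75074515-75074574, plus strand: tgtggtcatgtacgagactgtcaccagtta
Kitl, A_51_P133936, chr10:99661255-99661314, plus strand: ctaaggtgactatttatgatcctagaatgt
Kitl, A_52_P572571, chr10:99638154-99638213, plus strand: ttggctacgagatatggtaatacaattatc
Sohlh2, A_51_P378699, chr3:55338927-55338986, plus strand: ggcatttgaaagagcccccttcttccatca
Stra8, A_51_P276305, chr6:34870433-34870492, plus strand: ccagtagctagagttatactgccttgtctt
Dmrt1, A_52_P436393, chr19:25303450-25303509, plus strand: ttcatgttagagttaggttaaaacacttgt
Dmrtb1, A_51_P341296, chr4:107053160-107053219, minus strand: gcttttgaagagtgggggctggtgaaacac
Dmrtb1, A_52_P66596, chr4:107057216-107057275, minus strand: agtctgatcatgtggtaggagctgggaatc

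Stra8 and Dmrtb1 had the lowest levels in VRK1-deficient testes relative to wild type, and the 250 bases before a start of each are shown from RefSeq on GRCm38.p6. Capitals mark AGGTCA, the half-site of retinoic acid receptors, and CANNTG, the E-box of basic helix-loop-helix factors, searched on both strands.
Stra8, chr6:34920698-34920947, plus strand: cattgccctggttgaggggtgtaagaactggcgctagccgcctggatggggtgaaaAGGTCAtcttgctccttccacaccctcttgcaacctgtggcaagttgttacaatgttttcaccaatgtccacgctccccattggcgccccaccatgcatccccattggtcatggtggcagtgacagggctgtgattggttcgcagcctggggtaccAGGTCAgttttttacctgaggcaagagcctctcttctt
Dmrtb1, chr4:107684231-107684480, minus strand: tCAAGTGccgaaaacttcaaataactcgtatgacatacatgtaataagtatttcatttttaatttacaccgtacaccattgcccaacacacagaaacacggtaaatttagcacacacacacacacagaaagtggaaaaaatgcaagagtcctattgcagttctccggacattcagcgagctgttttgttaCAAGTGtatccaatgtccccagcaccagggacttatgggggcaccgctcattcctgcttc

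The Stra8 window held 2 AGGTCA, 194 and 38 bases before the start, and 1.36% of 32851 windows of this length held at least 2. The Dmrtb1 window held 2 CANNTG, where 31.8% of windows held at least 2. A second annotated start of the gene had 3, where 12.2% held at least 3. The Sohlh1 window held the most, with 5 CANNTG, and 1 AGGTCA. Of these CANNTG 3 were CACGTG, where 0.0609% of windows held at least 3 CACGTG. Sohlh2 had 1 CANNTG, and neither Kit nor Kitl had any of these motifs in its windows. No window of Dmrt1 was examined. A match is a description of the sequence only.

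Of the 6 measured genes, only Dmrtb1 passed the limma test with adjustment over the 26948 tested probes, and it fell. The share of all tested probes called was 3.64%, with 1.97% lower and 1.68% higher. At an unadjusted limma p under 0.05, 3 members were lower and 1 was higher, where 28.8% of tested probes passed (14.7% lower and 14.1% higher). 1 member lay lower without overlap between genotypes and 0 lay higher, against 7.27% and 9.43% of tested probes. The mean was lower in VRK1-deficient testes for 5 of the 6, against 45.5% of tested probes, and the median log2 change of the 6 was -0.69, against 0.04 over all tested probes. Without wild type replicate 1, 5 of the 6 members passed the test, where 28.4% of all tested probes passed, and without any 1 of the other 7 arrays none did.

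**Figure D1:**
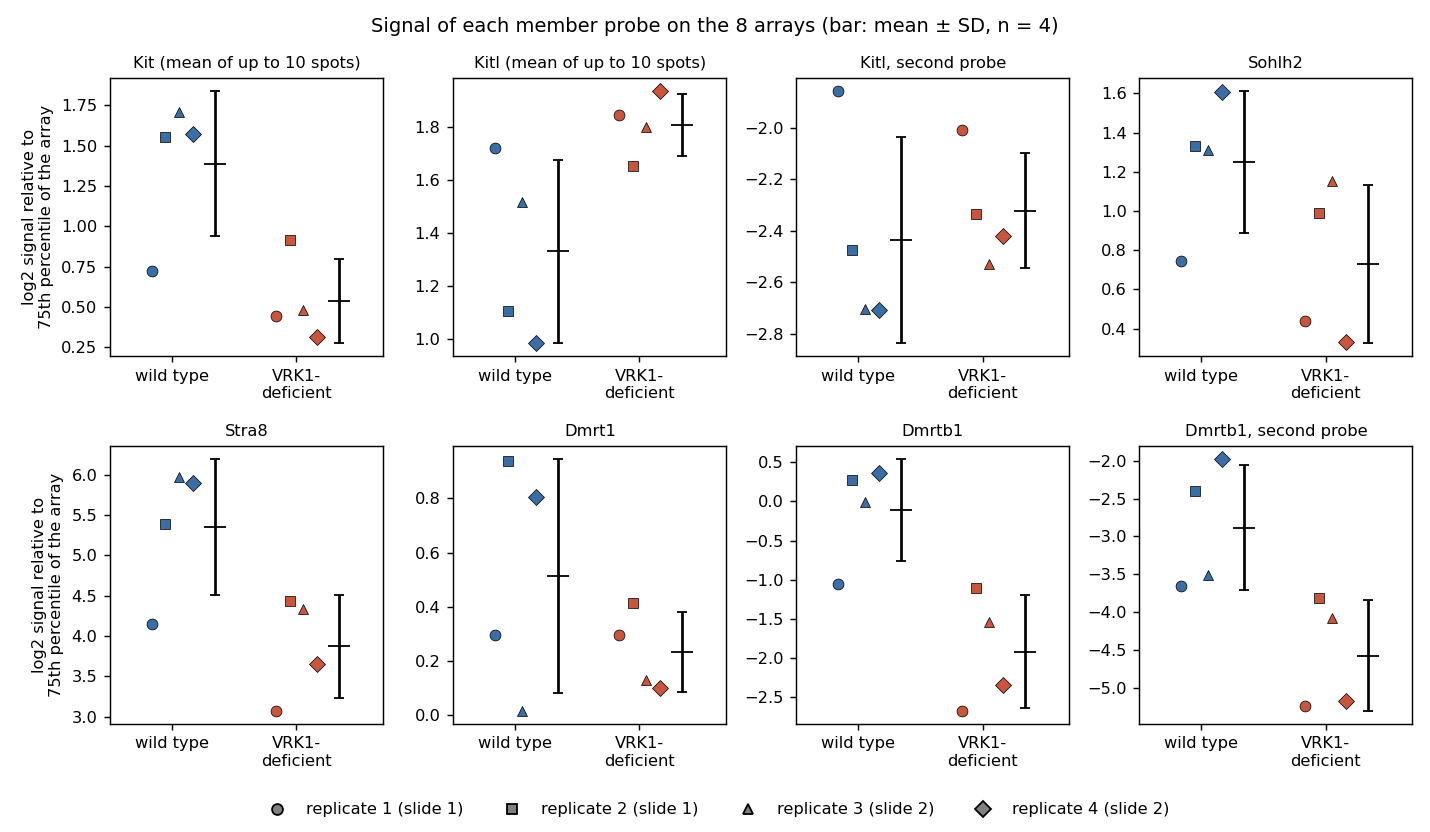
Scaled log2 signal of each member probe (0 is the 75th percentile), for 4 wild type (blue) and 4 VRK1-deficient (red) arrays. Marker shapes give the replicate and its slide, and bars give the mean and SD. The 2 Dmrtb1 probes are the panels in which the genotypes do not overlap, and wild type replicate 1 is the lowest wild type array for Kit, Sohlh2, Stra8 and both Dmrtb1 probes.

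Kit, the receptor, was lower in the mean in VRK1-deficient testes. Its log2 signal was 0.72, 1.55, 1.71 and 1.57 on wild type arrays 1 to 4 and 0.44, 0.92, 0.48 and 0.31 on VRK1-deficient arrays 1 to 4. Wild type replicates 2 to 4 lay above all VRK1-deficient arrays, and the groups overlapped because wild type replicate 1 lay below VRK1-deficient replicate 2. On the log2 scale the Kit difference was -0.85 with a standard error of 0.23 (limma adjusted p = 0.0633), a mean of 55.4% of the wild type signal. With wild type replicate 1 left out the value was -1.07 and passed the test (limma adjusted p = 0.00403). With any other single array left out Kit did not pass (limma adjusted p = 0.0845 to 0.172). The slide 1 arrays gave -0.46 and the slide 2 arrays -1.24.

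The Kit probe was printed at 10 places on each array, and so was the brighter Kitl probe. Over these spots the SD within an array ran from 0.04 to 0.14 for Kit and from 0.03 to 0.12 for Kitl, on the log2 scale. The SD of Kit between the 4 wild type arrays was 0.45. The low level on wild type replicate 1 was present at all of its spots, which lay between 0.60 and 0.81. The lowest spot of the other wild type arrays lay at 1.43.

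**Figure D2:**
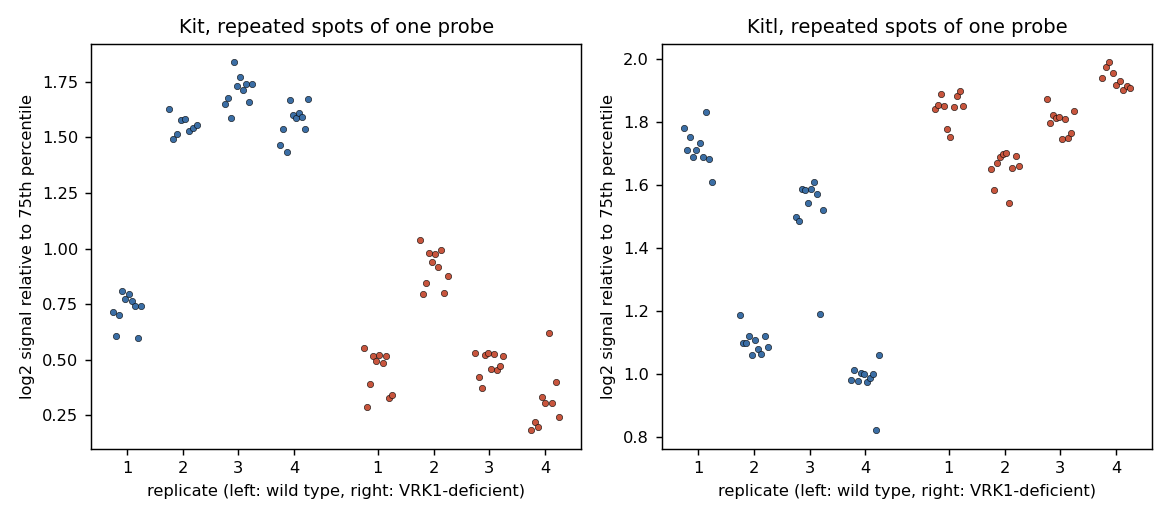
Log2 signal of every spot of the repeated Kit and Kitl probes on each array, for wild type (blue, left) and VRK1-deficient (red, right) replicates 1 to 4; spots marked as outliers were left out. Spots of wild type replicate 1 lie below those of the other wild type arrays for Kit, and some arrays of a genotype, such as wild type replicates 2 and 4 for Kit, overlap in their spots.

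Kitl, the ligand, differed the other way in its brighter probe. Its log2 signal was 1.72, 1.10, 1.52 and 0.98 on wild type arrays 1 to 4 and 1.85, 1.66, 1.80 and 1.94 on VRK1-deficient arrays 1 to 4. All VRK1-deficient arrays but replicate 2 lay above every wild type array. The difference was 0.48 with a standard error of 0.17 (limma adjusted p = 0.115). Leaving out wild type replicate 1 raised it to 0.61, and it passed (limma adjusted p = 0.0203).

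The second Kitl probe was dim, and its log2 signal was -1.86, -2.47, -2.71 and -2.71 in wild type and -2.01, -2.33, -2.53 and -2.42 in VRK1-deficient testes. Wild type replicate 1 was the highest of the 8 arrays. The genotypes differed by 0.11 with a standard error of 0.21 (limma adjusted p = 0.739), and by 0.31 without that array (limma adjusted p = 0.148). The changes of the 2 Kitl probes differed by 0.37 (exact two-sided permutation p = 0.114).

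Sohlh2, the transcription factor, was lower in the mean, with overlap. Its log2 signal was 0.75, 1.33, 1.31 and 1.61 in wild type and 0.44, 0.99, 1.15 and 0.33 in VRK1-deficient testes. Wild type replicate 1 lay below VRK1-deficient replicates 2 and 3. The difference was -0.52 with a standard error of 0.24 (limma adjusted p = 0.183), and it was -0.69 once wild type replicate 1 was left out (limma adjusted p = 0.0457).

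Dmrt1 had the smallest difference of the 6 genes. Its log2 signal was 0.30, 0.94, 0.02 and 0.80 in wild type and 0.30, 0.41, 0.13 and 0.10 in VRK1-deficient testes. Wild type replicates 1 and 3 lay within or below the VRK1-deficient range. It came to -0.28 with a standard error of 0.21 (limma adjusted p = 0.391) and a 95% interval of -0.74 to 0.19, and to -0.35 without wild type replicate 1 (limma adjusted p = 0.256).

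Dmrtb1 fell, and it was the member with the largest change. The brighter probe had a log2 signal of -1.06, 0.27, -0.01 and 0.36 in wild type and -2.68, -1.10, -1.54 and -2.35 in VRK1-deficient testes. Every VRK1-deficient array lay below every wild type array. The narrowest gap was between wild type replicate 1 and VRK1-deficient replicate 2. The probe fell by 1.81 on the log2 scale with a standard error of 0.40 (limma adjusted p = 0.0493), to 28.6% of wild type.

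This adjusted p lay just under the threshold of 0.05. It was 0.00573 without wild type replicate 1 and ran from 0.0733 to 0.151 when each of the remaining 7 arrays was left out in turn. The second Dmrtb1 probe had a log2 signal of -3.66, -2.40, -3.51 and -1.98 in wild type and -5.24, -3.82, -4.08 and -5.18 in VRK1-deficient testes. Its groups did not overlap either, and its change was -1.69 (limma adjusted p = 0.0634), or -1.95 without wild type replicate 1 (limma adjusted p = 0.0177). The changes of the 2 Dmrtb1 probes differed by -0.11 (exact two-sided permutation p = 0.829). With the normexp background correction they lay further apart, at -1.50 for the brighter probe (limma adjusted p = 0.0273) and -0.63 for the dimmer (limma adjusted p = 0.0971).

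Stra8, the retinoic acid target, had a log2 signal of 4.14, 5.40, 5.98 and 5.89 in wild type and 3.07, 4.43, 4.34 and 3.66 in VRK1-deficient testes. Wild type replicate 1 lay below VRK1-deficient replicates 2 and 3, and the other wild type arrays lay above all VRK1-deficient arrays. The difference was -1.48 with a standard error of 0.44 (limma adjusted p = 0.0762), and -1.88 once wild type replicate 1 was left out (limma adjusted p = 0.00665).

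**Figure D3:**
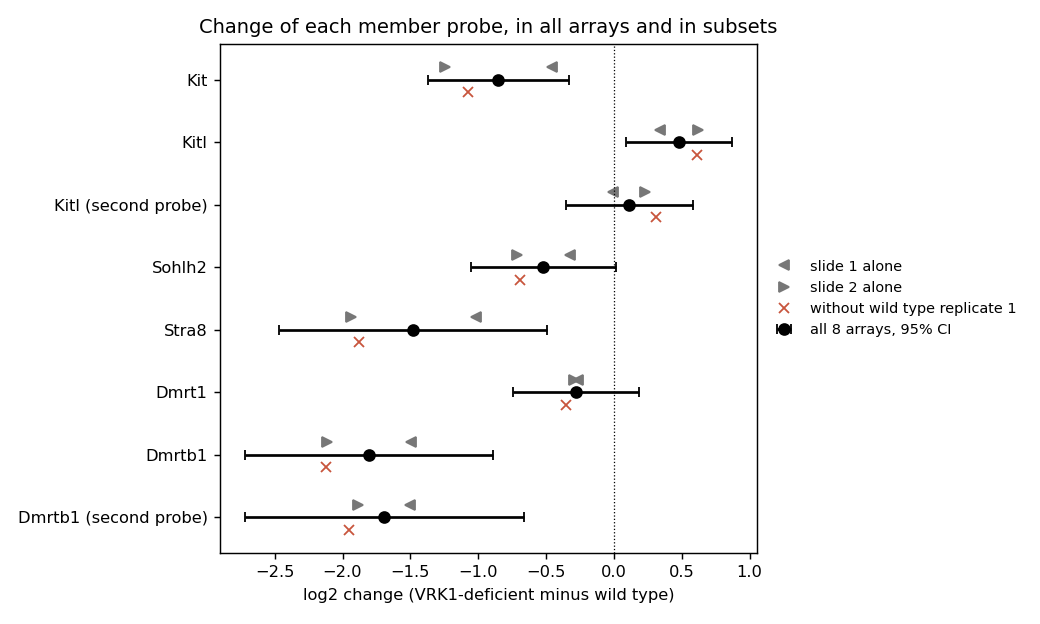
Log2 change of each member probe (VRK1-deficient minus wild type) with its 95% interval over all 8 arrays, and the same for each slide and for the 7 arrays that remain without wild type replicate 1. Kit, Sohlh2, Stra8 and Dmrtb1 lie below 0 in all of these sets, and the second Kitl probe lies at 0 within slide 1.

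In RNA of a whole testis, fewer cells of a type and less RNA per cell cannot be told apart. Levels were also taken relative to the mean of the 6 germ cell markers of the same array. This does not tell them apart either, and such a relative level also moves when the markers themselves change. These markers themselves had a median log2 change of -0.91, all 6 were lower in the mean, and Tdrd1, which acts in the piRNA pathway, passed the test (log2 change -1.11, limma adjusted p = 0.0499). Dnd1 had a change of -0.86, Mael of -0.81, Ddx4 of -0.83 and Dazl of -0.97, and these did not pass. All 6 markers had an unadjusted limma p under 0.05, as did 28.8% of all tested probes. None of the members passed the exact two-sided permutation test on this scale after adjustment over 8 comparisons (lowest adjusted p = 0.171). The smallest unadjusted p that 4 against 4 arrays allow is 0.0286. After adjustment over 8 comparisons a member could pass only if several others also reached that p. The test could therefore not call a single member on its own, whatever its difference.

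Relative to the germ cell markers, Kit was -0.93 ± 0.17 (SD, n = 4) in wild type and -0.84 ± 0.26 in VRK1-deficient testes, a difference of 0.09 (exact permutation p = 0.571), or 0.14 without wild type replicate 1. The SD of Kit among wild type arrays was 0.45 before this step and 0.17 after it. Kit differed by less than the spread between replicates on this scale.

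Dmrtb1 was -2.43 ± 0.36 in wild type and -3.30 ± 0.41 in VRK1-deficient testes relative to these markers, a difference of -0.87 (exact permutation p = 0.0571). Stra8 was 3.04 ± 0.29 and 2.49 ± 0.31, a difference of -0.54 (exact permutation p = 0.0857). The genotypes overlapped for both genes on this scale. Without wild type replicate 1 the differences were -0.91 for Dmrtb1 and -0.67 for Stra8.

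Sohlh2 lay 0.42 higher relative to germ cell markers in VRK1-deficient testes (exact permutation p = 0.0571), and Dmrt1 lay 0.66 higher (exact permutation p = 0.171). Kitl lay 1.42 higher relative to them (exact permutation p = 0.0857). These differences were 0.52, 0.86 and 1.82 without wild type replicate 1. Leaving out wild type replicate 3 in its place gave 0.26 for Sohlh2 and 0.31 for Dmrt1. Kitl and Dmrt1 are also made by Sertoli cells, and relative to the mean of 12 Sertoli cell markers Kitl differed by 0.17 (exact permutation p = 0.257) and Dmrt1 by -0.59 (exact permutation p = 0.143). These were 0.18 and -0.78 without wild type replicate 1, and with each array left out in turn Kitl ran from 0.10 (without wild type replicate 2) to 0.29 (without wild type replicate 3).

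**Figure D4:**
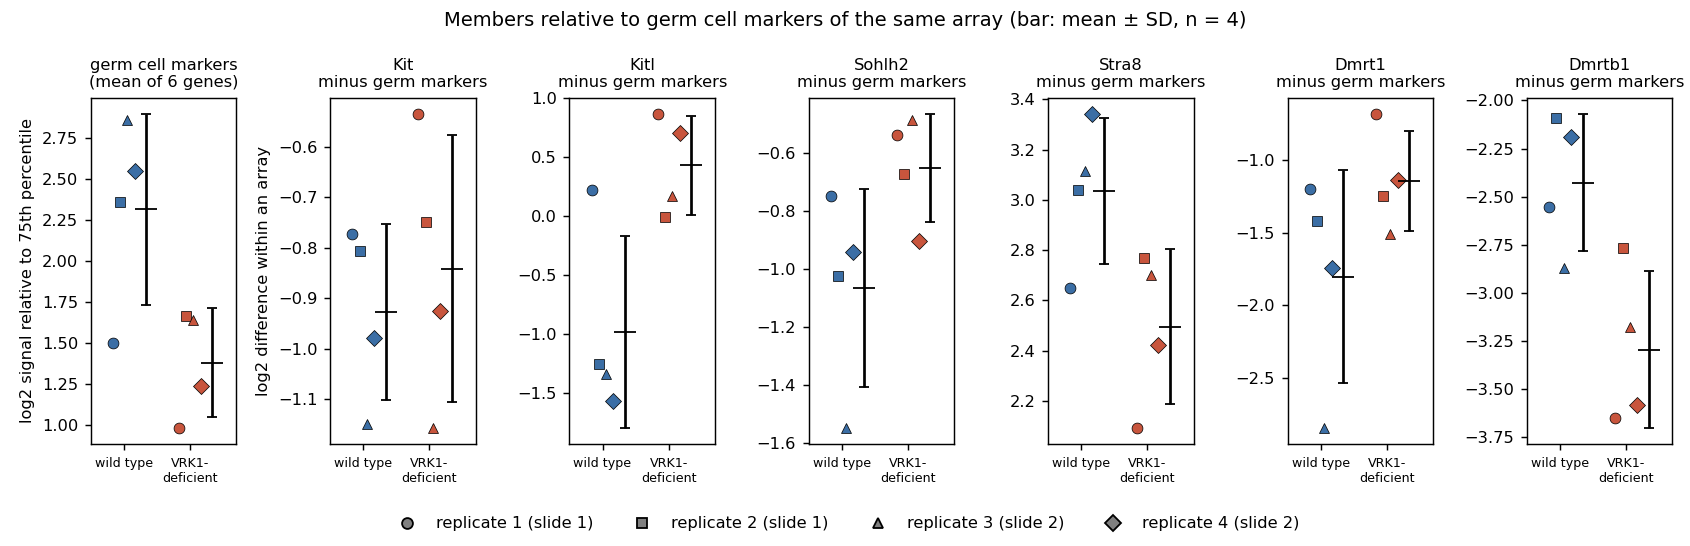
Mean log2 level of the 6 germ cell markers on each array (first panel) and each member minus that mean on the same array (other panels), with mean and SD of 4 arrays. For Kit the genotypes overlap over most of their range, and 3 of 4 VRK1-deficient arrays for Dmrtb1 and 2 of 4 for Stra8 lie below every wild type array.

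The partners and pathway genes of the members were described by list. For comparison, 3.64% of all tested probes passed the limma test, and 28.8% had an unadjusted limma p under 0.05. Of 15 genes of Kit signalling, 0 passed the limma test in either direction (3 at an unadjusted p under 0.05), and their median change was 0.16. Lyn, a Src family kinase, had a change of 0.39 (limma adjusted p = 0.0667), Gab2, an adaptor, 0.55 (limma adjusted p = 0.132), and Pik3r1, the regulatory subunit of PI 3-kinase, 0.40 (limma adjusted p = 0.136).

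Of 7 partners and targets of the Sohlh factors, 0 passed (5 at an unadjusted p under 0.05) and the median was -0.73. Lhx8 and Nobox, transcription factors best known from the oocyte, had changes of -2.16 (limma adjusted p = 0.053) and -1.46 (limma adjusted p = 0.0569), with no overlap, and Tcf4, an E protein, had 0.39 (limma adjusted p = 0.0806).

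Of 6 other Dmrt genes, Dmrtc2, which is needed in meiotic germ cells, fell by 1.85 on the log2 scale (limma adjusted p = 0.0409). Dmrtc1a had a change of -0.75, Dmrta1 of -0.35, Dmrta2 of -0.99, Dmrt2 of -0.69 and Dmrt3 of 0.03, and none of these 5 passed. Dmrta2 was dim, well above background on 3 wild type arrays and 1 VRK1-deficient array, so its change lies near the background. The median of the 6 was -0.72, and 4 of them had an unadjusted limma p under 0.05.

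Of 6 markers of differentiating spermatogonia, 2 fell and 0 rose (6 at an unadjusted limma p under 0.05). Dnmt3b, a DNA methyltransferase, fell by 1.05 (limma adjusted p = 0.0474), and Esx1, a homeobox gene, by 2.35 (limma adjusted p = 0.0474). Ccnd2, a D-type cyclin, lay the other way, with a change of 0.65 and no overlap (limma adjusted p = 0.0658). Of 7 genes of meiotic initiation, Stag3, a meiotic cohesin, fell by 1.03 (limma adjusted p = 0.0454), and all 7 were lower in the mean. At an unadjusted limma p under 0.05, 6 of the 7 passed. Sycp1, of the synaptonemal complex, had a change of -1.40 (limma adjusted p = 0.0591) and Smc1b, a meiotic cohesin, of -1.15 (limma adjusted p = 0.0796). Of 15 genes of undifferentiated spermatogonia, Sall4 fell (log2 change -0.99, limma adjusted p = 0.0493) and Bcl6b rose (0.61, limma adjusted p = 0.0499), and the median was -0.16. In the mean 8 of the 15 were lower and 7 higher, and 10 of the 15 had an unadjusted limma p under 0.05. Without overlap between genotypes 3 were lower and 4 higher, against 7.27% and 9.43% of tested probes. Lin28a, an RNA-binding protein, had a change of -1.12 (limma adjusted p = 0.0501). None of these lists, nor the germ cell markers, had a called gene when any single one of the 7 arrays besides wild type replicate 1 was left out. Without wild type replicate 1, where 28.4% of all tested probes passed, the test was passed by 3 of the 15 Kit signalling genes, 5 of the 7 Sohlh partners and targets, 3 of the 6 other Dmrt genes, all 6 markers of differentiating spermatogonia, 6 of the 7 meiotic genes, 11 of the 15 genes of undifferentiated spermatogonia and all 6 germ cell markers.

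**Figure D5:**
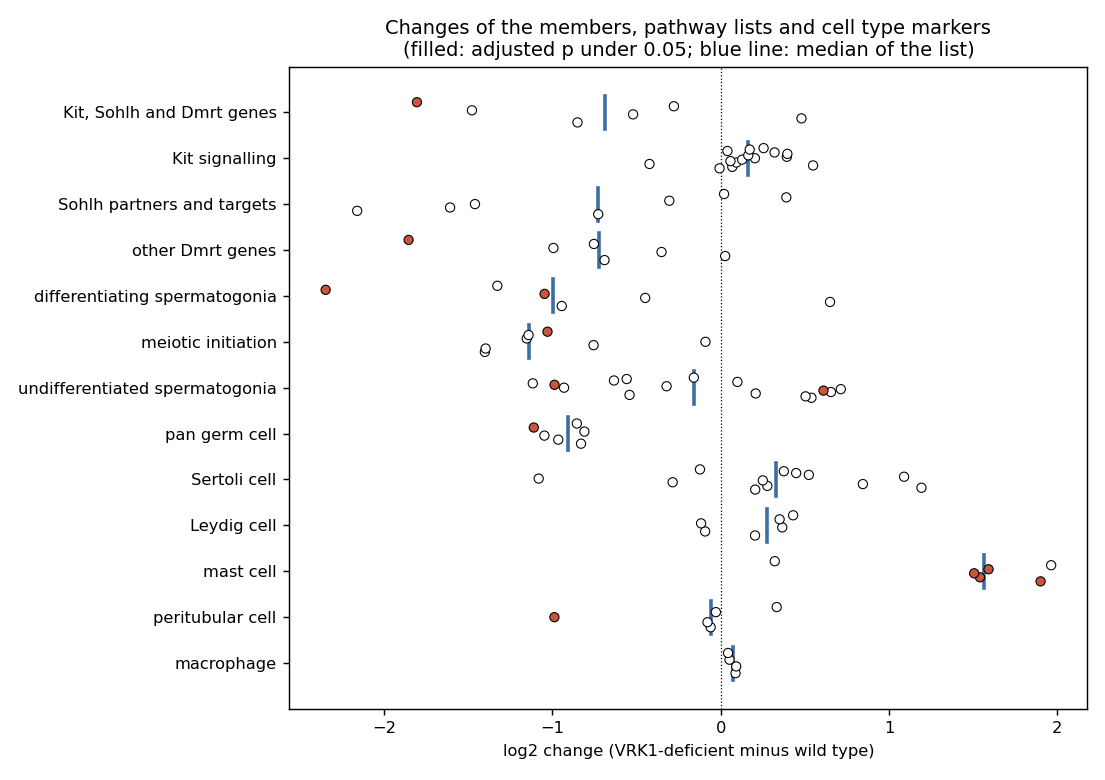
Log2 change of the members and of each gene in the pathway and cell type lists. Filled points have a limma adjusted p under 0.05, and the blue line is the median of the list. Members, Sohlh partners, meiotic genes and germ cell markers have medians below 0, and mast cell markers lie above it.

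Kit is also carried by mast cells, so their markers were set beside it. Of 6 tested markers 4 rose (Cpa3, Cma1, Mcpt4 and Tpsb2, log2 changes 1.51 to 1.90), and the list mean lay between -4.05 and -3.12 in wild type and between -2.55 and -1.94 in VRK1-deficient testes. Without wild type replicate 1 all 6 passed, and 0 or 1 did when another array was left out. With all arrays, 5 of the 6 had an unadjusted limma p under 0.05. Over all tested probes, 3.64% passed the limma test and 28.8% had an unadjusted p under 0.05. Without wild type replicate 1, 28.4% passed. Ms4a2 was not well above background on any array and Fcer1a was so on 2 of 8. Of the 6 tested, Tpsab1 was so on 1 wild type array and 4 VRK1-deficient arrays. It met the filter only through the group where it lay higher, and it counts in the list mean. Cpa3 and Tpsb2 were so on 3 wild type and 4 VRK1-deficient arrays. Kit lay lower while these markers lay higher, and their part in the Kit level was not tested. Of 12 Sertoli cell markers 0 passed (8 at an unadjusted p under 0.05, 9 of the 12 in the adjusted test without wild type replicate 1, median 0.33, list mean 2.62 to 3.15 in wild type and 2.96 to 3.24 in VRK1-deficient testes), and their part in the Kitl level was not tested. Of the 12, 9 were higher and 3 lower in the mean. The FSH receptor Fshr had a log2 change of 1.09 (limma adjusted p = 0.0598), Ctsl of 0.37, Dhh of 0.45, Amh of 1.19 and Sox9 of 0.20. Rhox5, Cldn11 and Tjp1 were the lower ones, at -1.08, -0.29 and -0.12, and were named after their values were seen.

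Of 6 Leydig cell markers 0 passed (2 at an unadjusted p under 0.05), and 2 passed without wild type replicate 1. Over all tested probes the latter shares were 28.8% and 28.4%. Lhcgr had a change of 0.43, Hsd3b1 of 0.37, Insl3 of 0.35, Cyp11a1 of 0.20 and Cyp17a1 of -0.09. Of 4 macrophage markers 0 passed with or without that array (0 at an unadjusted p under 0.05), with changes of 0.09 for Csf1r, 0.09 for Cd68 and 0.05 for Adgre1. Of 5 peritubular cell markers Cnn1 fell (log2 change -0.99, limma adjusted p = 0.0445), as it did without wild type replicate 1, and its limma adjusted p was 0.0664 to 0.147 when each of the other 7 arrays was left out. Des had a change of 0.33, Acta2 of -0.06 and Myh11 of -0.08, and Cnn1 alone of the 5 had an unadjusted limma p under 0.05.

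Among 14749 gene symbols, the nearest to each member in level over the 8 arrays, after each gene was centred, were taken by root mean square difference. They were Zfp597 for Kit (0.08), Ncoa7 for Kitl (0.05), Wfdc15a for Sohlh2 (0.10), Dusp2 for Stra8 (0.12), Zbtb9 for Dmrt1 (0.10) and Tlcd4 for Dmrtb1 (0.17), in log2 units. Next in order came Itgb7 and Katnal2 for Kit, Gpm6b and Nfia for Kitl, Foxj1 and Ppa1 for Sohlh2, Gja3 and Crabp1 for Stra8, Cnot11 and Spats2 for Dmrt1, and Map3k9 and Runx3 for Dmrtb1. Crabp1, a retinoic acid binding protein, is also in the list of differentiating spermatogonia.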

How the data were processed

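Total RNA of testes was labeled with Cy3 and hybridized to 1-color Agilent arrays, and the signals were extracted with Agilent Feature Extraction 9.5.3.1, per the labels. The deposited intensity of a spot is the background-subtracted signal on a linear scale, with no scaling across arrays by the authors, and the deposited series table was identical to it. Here the intensity was put on the log2 scale and centred on the 75th percentile of its array, outlier spots were left out and spots of a probe were averaged. Testing required a signal well above background on 4 or more of the 8 arrays (26948 of 41174 probes). For a probe with several spots, a share of 0.5 or more of them had to be so. This rule was compared with any spot (26962 probes) and all spots (26943) after the members' results were seen, and the rule written first was kept. Genotypes were compared with limma 3.58.1 in R 4.3.3 with Benjamini-Hochberg adjustment over all tested probes, and a gene was represented by its probe with the highest mean signal. Levels relative to markers were compared by an exact permutation test in scipy 1.17.1. On simulated data, 80.5% of 200 changed probes among 26941 were recovered and 17 unchanged probes were called. Whether this rate of recovery holds for the members or for the 8 arrays was not tested. The members and lists were chosen with earlier results of these data known. The names given are all members, the 3 genes of lowest p and the defining markers of a list, the other Dmrt genes and the nearest genes, with other genes named where they were called or lay the other way. The labels call the samples biological replicates. For each probe the deviation of each sample from its genotype mean was taken. Correlations of these deviations over probes, between same-numbered samples, were 0.468, 0.073, 0.188 and -0.138. They are not correlations of the signals, and they were not compared with those of differently numbered samples. Numbers were not used as pairs in the reported comparison, and whether they pair the samples was not settled. Alternatives were quantile and normexp (offset 50) normalization, unscaled values, other filters, the mean over probes, slide or replicate blocks, each slide alone, the methods' t-test, trend and robust variances, and each array left out. The number of arrays limits the precision.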

Additional observations from a re-analysis of the deposited data

Results flagged for a closer look

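Kit on wild type replicate 1 had a log2 signal of 0.724, and its gap to the nearest wild type array, divided by the range of the 4, was 0.839, above Dixon's 95% critical value for 4 samples. This was 1 of 36 groups of 4 arrays examined, where chance gives about 1 in 20.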

How the results depend on the processing

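The call on Dmrtb1 was lost under 12 of 22 alternatives, and its direction and that of Kit, Sohlh2, Stra8, Dmrt1 and the brighter Kitl probe held under all of them. Of 6 members, 1 passed in the reported comparison, 0 passed with quantile normalization, without a filter on dim probes, with slide as a block, on slide 1 alone and with the methods' t-test after Benjamini-Hochberg adjustment, 2 with unscaled values and with trend and robust variances, 3 with normexp and on slide 2 alone, and 4 with the methods' t-test at an unadjusted p of at most 0.05. With each array left out in turn, 0 to 5 passed, and the 5 came from leaving out wild type replicate 1. The members with an unadjusted p under 0.05 numbered 4, and 0 on slide 1 alone. The cause was not tested.

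Over all tested probes 982 were called. The count was 17 with no filter, 626 with slide as a block, 3 on slide 1 alone, 217 with the methods' t-test after adjustment and 7065 before it, 1920 with trend and robust variances, and 3 to 7641 with an array left out, the highest without wild type replicate 1. Of the pathway list genes, 6 were called, against 13 with normexp or with trend and robust variances, 11 with unscaled values or a filter on all 8 arrays, 3 with slide as a block, 16 on slide 2 alone, 0 with no filter, on slide 1 alone or with the adjusted methods' t-test, and 0 to 34 with an array left out. With unscaled values the median change of all probes was -0.138, and 852 probes were called lower and 64 higher, against 530 and 452. Whether replicate numbers pair the samples was not settled. With replicate number as a block, 2280 probes, 3 members and 17 pathway list genes were called.

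The second Kitl probe reversed to -0.065 with unscaled values and to -0.005 on slide 1 alone. Kit relative to germ cell markers, 0.09, reversed to -0.021 with Ddx4 as the only marker, and ran from -0.017 (without VRK1-deficient replicate 1) to 0.191 with an array left out. The rule for probes with several spots was examined in 3 forms, the other two chosen after seeing the data. A share of 0.5 or more of the spots gave the reported values, any spot gave 982 called probes and all spots gave 981, and Dmrtb1 had a limma adjusted p of 0.0493 in each.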
